A study of Homo sapiens with 6 samples.

Results

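The DNA damage response and repair genes were 57 named genes, and their splicing was followed in SKNBE2 cells, a MYCN-amplified human neuroblastoma line whose cell type is labelled neuroblast. The members were every event of a deposited splicing table whose gene was 1 of the 57, and which carried at least 10 reads and a coverage score of LOW or better in all 6 libraries. This gave 3383 of the 4153 events listed for the genes, with at least 1 event in each of the 57, out of 304901 covered events in the whole table. DFMO cells (3 libraries) had received difluoromethylornithine at 250 µM for 4 days, and Control cells (3 libraries) carried only that label, so their vehicle is not given in the sources used here. DFMO blocks ornithine decarboxylase, the first enzyme of polyamine synthesis, and the comparison addresses the depletion of polyamines in these cells. Both groups were the same cell line, libraries were stranded and read from a single end over 100 bases, and nothing states whether the 3 libraries of a group came from separate cultures. The p-values therefore rest on the spread between these libraries, which may be technical. For introns and splice sites that spread was taken from the trend over all events of the class. The scatter of a single such event between its libraries therefore carried no weight in its p-value.

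Cells repair DNA by several routes. Double-strand breaks are sensed by the MRE11-RAD50-NBN complex, trimmed with the help of RBBP8 (CtIP), and copied back from the sister chromatid by homologous recombination, or rejoined directly by the DNA-PK machinery of non-homologous end joining. The Fanconi anaemia proteins unhook crosslinked strands, the RecQ helicases (BLM, WRN and the RECQL proteins) unwind recombination intermediates, and base excision, mismatch and nucleotide excision repair remove damaged or mispaired bases. Many recombination genes are more strongly expressed in dividing than in resting cells, and repair genes can have alternative exons or retained introns that change or end the reading frame.

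Each event has a percent in each library. For a splice site it is the share of reads that use that site. For an exon, as a rule, the reads at both of its junctions are averaged and set against the reads that skip it. For an intron the reads at both ends are averaged in the same way and set against the spliced reads. Exon and intron percents are therefore not plain shares of all reads. The event reads summed to between 82918379 and 100005273 in the DFMO libraries and between 77648922 and 103250467 in the Control libraries. DFMO and Control libraries lay on opposite sides of the leading principal component, which held 33.6% of the variance of the exon log odds. An event was tested where its mean percent lay between 5 and 95, which left 105 exons, 40 introns, 18 acceptors and 23 donors of the genes, 186 events in 44 genes. Of the rest, 1531 events had a mean under 5 and 1181 a mean over 95, and 485 were the shortest form of a splice-site choice. An event was called where limma's adjusted p (Benjamini-Hochberg within each class of event, over all events of that class) was under 0.05 and the mean percents lay 10 points or more apart.

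In the DFMO cells RIF1 and ERCC1 included a coding exon more often and BLM included one less often. The RIF1 and BLM exons are printed because they were called, and the ERCC1 exon because it passed the test at just under 10 points; the NBN exon, also called, and the PRKDC exon, which passed at a smaller size, are described without their sequence. The capitals are the exon and the lower-case letters the last 20 and first 20 bases of the exons that flank it in the GENCODE 29 transcript. Each reads 5′ to 3′ on the strand of its gene, with GRCh38 coordinates. The 78-nt RIF1 exon (chr2:151468474-151468551, plus strand, exon 31 of 35) is 26 codons long, so its inclusion keeps the frame. The 72-nt ERCC1 exon (chr19:45413963-45414034, minus strand, exon 7 of 8) is 24 codons long. The 133-nt BLM exon (chr15:90760147-90760279, plus strand, exon 6 of 22) is not a multiple of 3, so a transcript that skips it changes frame.
RIF1: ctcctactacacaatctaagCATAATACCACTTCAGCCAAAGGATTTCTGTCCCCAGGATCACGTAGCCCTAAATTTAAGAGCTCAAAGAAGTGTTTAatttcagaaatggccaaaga
ERCC1: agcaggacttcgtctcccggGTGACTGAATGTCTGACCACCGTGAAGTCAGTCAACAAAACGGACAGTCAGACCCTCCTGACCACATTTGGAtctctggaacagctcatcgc
BLM: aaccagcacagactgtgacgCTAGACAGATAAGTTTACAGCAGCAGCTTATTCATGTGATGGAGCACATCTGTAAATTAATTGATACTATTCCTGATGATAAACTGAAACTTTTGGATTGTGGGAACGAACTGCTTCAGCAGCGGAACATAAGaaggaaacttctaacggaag
G and C make up 41.0% of the RIF1 exon, 50% of the ERCC1 exon and 38.3% of the BLM exon.

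Of the 186 tested events, 8 in 6 genes were called, which is 4.3% of them, against 3.04% of the 15339 events tested over all genes. Higher in DFMO were 3 of them (1.61%), against 1.91% of all events. Lower in DFMO were 5 (2.69%), against 1.13% of all events. At an adjusted p under 0.05 whatever the size there were 13 events in 10 genes (6.99%), against 5.48% of all events. The groups did not overlap for 41 of the 186 (22%), against 23.5% of all events. By class, 3 of 105 exons were called, against 3.45% of all exons, 3 of 40 introns, against 3.8% of all introns, 1 of 18 acceptors, against 1.23% of all acceptors, and 1 of 23 donors, against 2.21% of all donors. Counts this small, near the background, are no result about the genes as a group, and what follows are results on single events. All 8 calls depended on how the spread was estimated: without the variance trend, or with a quasi-binomial regression of each event alone, 0 of the 8 were called, with 28 and 24 member events at an unadjusted p under 0.05, against 36 in the fit used here.

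**Figure D1:**
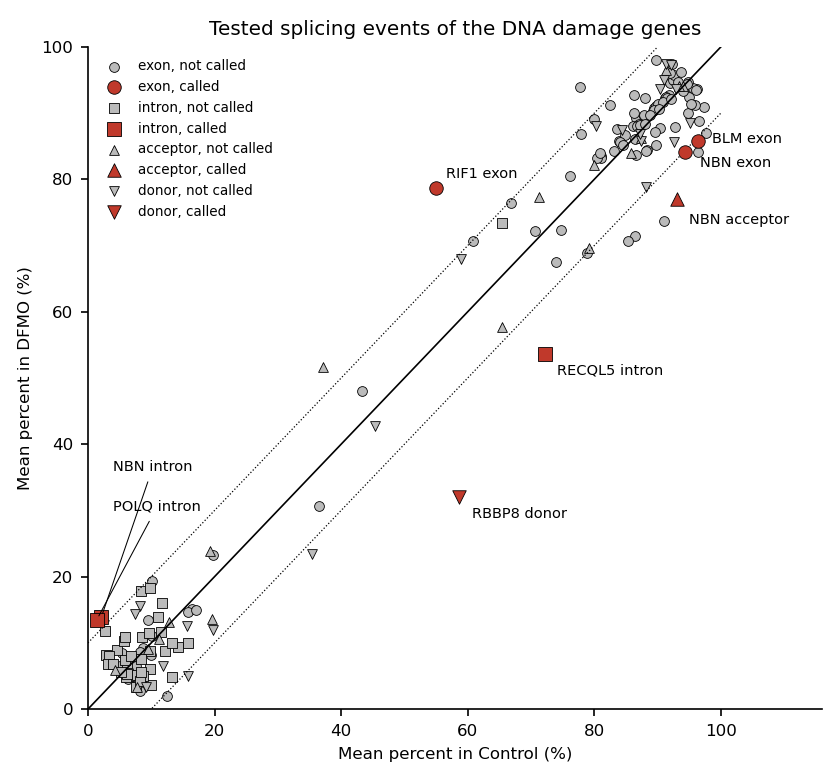
Mean percent of each of the 186 tested events in DFMO (vertical axis) against Control (horizontal axis), with 3 libraries in each group; the solid line marks equal percents, the dotted lines a difference of 10 points, and red symbols the 8 called events. RIF1 lies farthest above the line (78.7% in DFMO, 55.01% in Control) and RBBP8 farthest below it (32.02% in DFMO, 58.7% in Control).

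Homologous recombination held 4 of the 8 called events, 1 higher and 3 lower in DFMO, among 31 tested events of 10 genes. Over all genes 3.04% of tested events were called. All 4 calls of the role lay in NBN and RBBP8. NBN, the nibrin subunit of the break-sensing complex, carried 3 of the 4 side by side on chromosome 8. Its 1198-nt intron (89981524 to 89982721, GRCh38, minus strand, inside the coding sequence) was retained at 14.1%, 21.1% and 6.52% in the DFMO libraries, against 2.97%, 2.67% and 0.70% in the Control libraries. All DFMO libraries lay above all Control libraries, and the third DFMO library lay nearest to them. The means were 13.9% ± 7.31 in DFMO and 2.11% ± 1.23 in Control (SD, n = 3 each), a difference of 11.8 points and 2.57 ± 0.65 (SE) in log2 odds (limma adjusted p = 0.00287). Few retained reads lay behind these percents. At the ends of the intron they numbered 11 and 9, 9 and 21, and 3 and 9 in the DFMO libraries. In the Control libraries they numbered 5 and 1, 0 and 4, and 1 and 0.

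The 149-nt NBN coding exon just downstream of that intron (89981375 to 89981523) was included at 81.4%, 82.2% and 88.8% in the DFMO libraries, against 90.9%, 94.9% and 97.4% in the Control libraries. Inclusion averaged 84.1% ± 4.06 in DFMO and 94.4% ± 3.28 in Control (SD, n = 3 each), a difference of −10.2 points (limma adjusted p = 0.0449). The length of this exon is not a multiple of 3, so skipping it shifts the frame. The next exon of NBN has acceptors 41 nt apart (longest form 89980758 to 89980893). The upstream acceptor, at the edge of the coding sequence, took 63.2%, 82.9% and 85.1% of reads in the DFMO libraries, against 94.1%, 89.7% and 95.4% in the Control libraries. Its use averaged 77.1% ± 12.1 in DFMO and 93.03% ± 2.99 in Control (SD, n = 3 each), a difference of −15.9 points (limma adjusted p = 0.00992), and the first DFMO library was the lowest. The downstream acceptor, annotated only in transcripts without a coding sequence, took 36.1%, 17.1% and 14.9% in the DFMO libraries, against 4.24%, 10.3% and 4.63% in the Control libraries.

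Between the skipped exon and this acceptor lies a 481-nt NBN intron whose mean was too low for the test. It was retained at 5.52%, 4.64% and 4.72% in the DFMO libraries, against 0.74%, 0% and 1.43% in the Control libraries, so these groups did not overlap either. A 50-nt NBN exon (89981953 to 89982002) lies inside the called 1198-nt intron and is coding only in a transcript marked for nonsense-mediated decay. Its inclusion was 27.1%, 15.5% and 15.4% in DFMO and 7.62%, 9.64% and 12.9% in Control. The groups did not overlap, and the exon did not pass (limma adjusted p = 0.199). The part of this exon in the percent of the intron around it was not tested. The NBN exon call was lost in 4 of the 6 fits that left out 1 library, the acceptor call in 3 and the intron call in 1 (without DFMO replicate 2). Neighbouring events of a gene share reads, so the 3 NBN calls are not 3 independent observations.

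**Figure D2:**
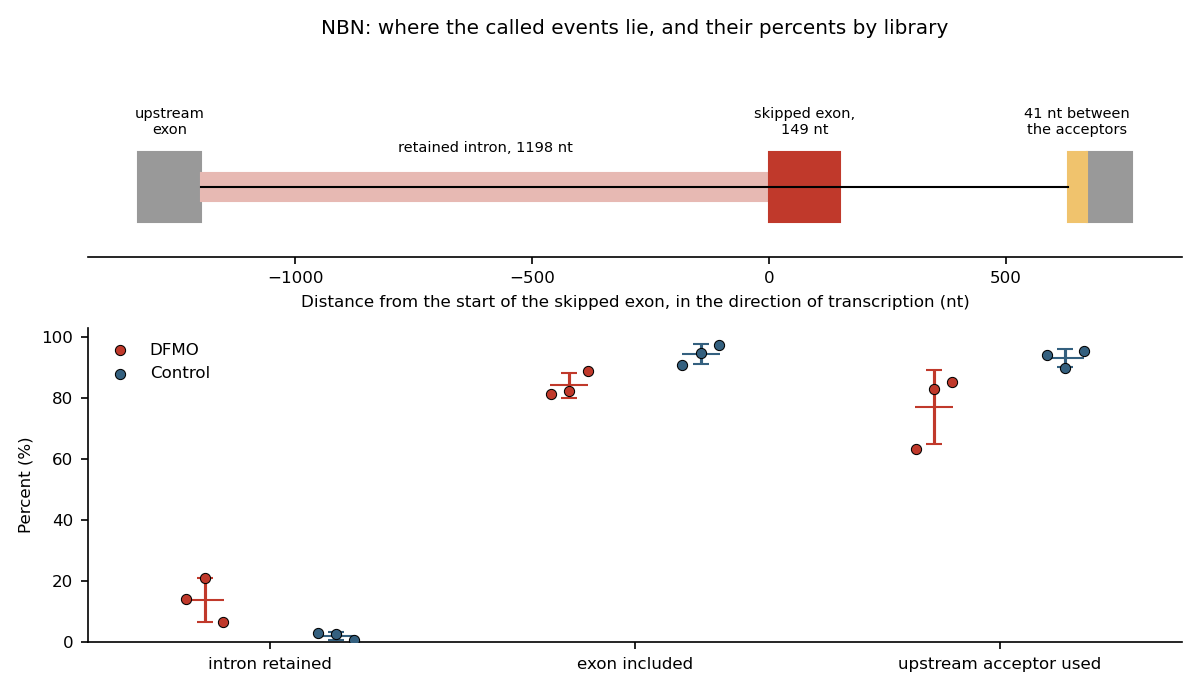
Top, a map of the NBN region to scale, in nucleotides from the start of the skipped exon in the direction of transcription; bottom, the percents of its 3 called events by library (points), with the mean and SD of DFMO (red) left of Control (blue). Retention of the 1198-nt intron was higher in every DFMO library than in any Control library, and inclusion of the 149-nt exon and use of the upstream acceptor were lower. A 50-nt exon inside the 1198-nt intron is not drawn.

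RBBP8, the nuclease partner that starts end resection, changed its choice of donor in the 5′ part of the gene outside the coding sequence (chromosome 18, 22933881 to 22934159). The donor that adds 81 nt took 32.8%, 36% and 27.3% of reads in the DFMO libraries, against 62.3%, 62.9% and 50.8% in the Control libraries. The groups were well apart, at 32.02% ± 4.42 in DFMO and 58.7% ± 6.85 in Control (SD, n = 3 each), a difference of −26.6 points (limma adjusted p = 0.0133). The shortest form averaged 62.3% ± 3.46 in DFMO and 38.7% ± 8.01 in Control (SD, n = 3 each), and was not tested because it is the complement of the others. Each library had 44 to 69 reads behind these percents, and 3 of the 6 fits that left out 1 library lost the call.

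RAD50, the ATPase of the same complex as NBN, narrowly missed the threshold and was picked after its values were seen. A 176-nt RAD50 coding exon was included at 78.8%, 80.5% and 93.2% in the DFMO libraries, against 93.3%, 97.0% and 98.9% in the Control libraries (limma adjusted p = 0.0589, a difference of −12.3 points). The 528-nt intron that follows it was retained at 6.25%, 8.86% and 7.60% in the DFMO libraries, against 0.44%, 0.59% and 0.91% in the Control libraries, and was outside the tested range. RAD50 and NBN thus each had lower inclusion of a coding exon beside higher retention of an intron next to it, although the RAD50 exon did not pass. A pattern common to RAD50 and NBN was not tested.

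Exons of PALB2, BRCA1 and RAD52 differed by 10 points or more without passing, and an intron of RAD51C passed with a difference under 10 points. PALB2, which links BRCA1 to BRCA2, had an exon listed at 120 nt, of transcripts without a coding sequence, at 3.80%, 0% and 2.17% in DFMO, against 12%, 12.1% and 13.6% in Control. These groups did not overlap, and the difference of −10.6 points did not pass (limma adjusted p = 0.193). BRCA1, which works with BARD1 and PALB2 in recombination, had a 46-nt exon at 84.5%, 58.9% and 70.7% in DFMO and at 88.1%, 89.4% and 82.1% in Control (limma adjusted p = 0.123), and these groups overlapped. A 77-nt BRCA1 exon was at 82.5%, 63.9% and 65.9% in DFMO, against 83.0%, 90.7% and 82.2% in Control (limma adjusted p = 0.168). A RAD52 exon listed at 99 nt, of a gene whose product anneals single strands, was at 92.3%, 89.7% and 100% in DFMO, against 68%, 74.4% and 90.7% in Control (limma adjusted p = 0.231), with 1 Control library inside the DFMO range. In RAD51C, which takes part in homologous recombination, a 1503-nt intron (chromosome 17, 58695190 to 58696692) was at 6.97%, 10.04% and 9.76% in DFMO and 3.64%, 4.15% and 5.80% in Control (limma adjusted p = 0.00853). Its reads came almost wholly from 1 end of the intron, 62, 67 and 59 there in DFMO and 29, 27 and 61 in Control, while the other end had 0, 0 and 2 in DFMO and 0 in each Control library. Retention of the whole intron was therefore not measured at both ends.

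RIF1, which works with 53BP1 at chromatin around a break to hold back end resection, had the highest difference of all tested events of these genes. Its 78-nt exon was included at 74.4%, 82.4% and 79.3% in the DFMO libraries, against 57.9%, 53.7% and 53.5% in the Control libraries, from 164 to 215 reads in each library. Inclusion averaged 78.7% ± 4.04 in DFMO and 55.01% ± 2.497 in Control (SD, n = 3 each), a difference of 23.7 points and 1.60 ± 0.27 (SE) in log2 odds (limma adjusted p = 0.00297). The call held in all 6 fits that left out 1 library. The exon sequence is the one printed above. The introns on either side of it were retained at under 3% in each library, at means of 0.807% and 1.19% in DFMO and 1.21% and 1.03% in Control.

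Other RIF1 exons did not follow it. A 93-nt coding exon was at 75%, 69.8% and 76.2% in DFMO, against 100%, 76.5% and 96.6% in Control (limma adjusted p = 0.151). Coding exons of 71 and 181 nt lay above the tested range: the 71-nt exon was at 91.3%, 100% and 86.5% in DFMO and at 100% in each Control library, and the 181-nt exon at 91.7%, 100% and 88.6% in DFMO and at 100% in each Control library. The second DFMO library was like the Control libraries for both. The role had 7 tested events in 3 genes, and the RIF1 exon was the single call among them.

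**Figure D3:**
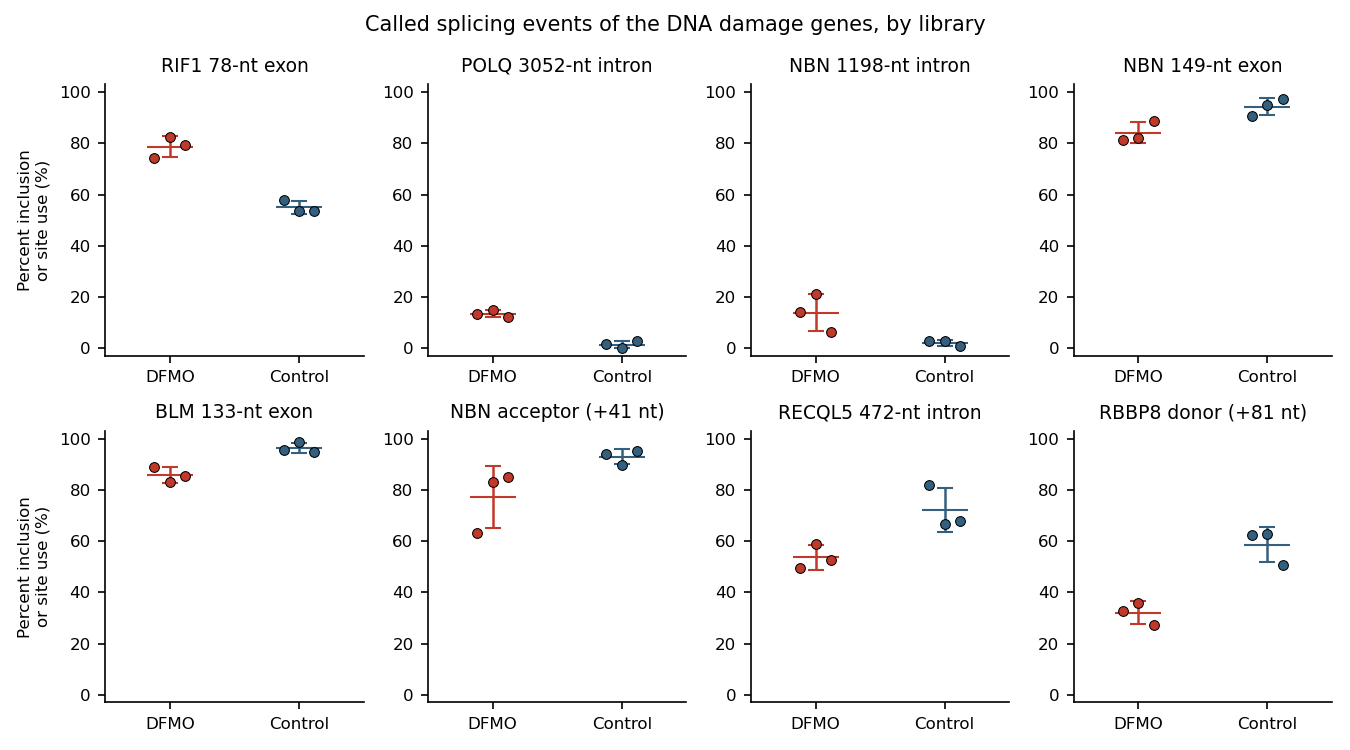
Percent inclusion or site use (vertical axis, 0 to 100%) of the 8 called events in each library (points), DFMO left of Control, with the mean and SD. The groups do not overlap in any panel, RIF1 and the POLQ and NBN introns are higher in DFMO, and the NBN exon and acceptor, BLM, RECQL5 and RBBP8 are lower.

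Among the RecQ helicases, 2 of the 18 tested events were called, both lower in DFMO. Of all tested events 3.04% were called, and 1.13% were called lower. BLM dissolves crossed strands with topoisomerase III. Its 133-nt coding exon, printed above and listed in the table as the last 129 nt of it, was included at 88.9%, 82.9% and 85.6% in the DFMO libraries, against 95.5%, 98.8% and 94.8% in the Control libraries. Inclusion averaged 85.8% ± 2.99 in DFMO and 96.4% ± 2.14 in Control (SD, n = 3 each), a difference of −10.6 points (limma adjusted p = 0.0361). The percent rests on 6, 10 and 10 skipping reads in the DFMO libraries and 4, 1 and 5 in the Control libraries, and the call was lost in each of the 6 fits that left out 1 library.

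The introns next to the BLM exon had higher percents in DFMO, and 1 of them passed the test. The 5208-nt intron before it (chromosome 15, 90754939 to 90760146) was at 10.4%, 16.5% and 8.26% in DFMO, against 1.79%, 1.01% and 5.2% in Control, 9.06 points higher (limma adjusted p = 0.0426). The 314-nt intron after it was at 10.1%, 9.55% and 4.92% in DFMO, against 2.44%, 1.69% and 4.59% in Control, and did not pass (limma adjusted p = 0.0601). BLM thus resembled NBN in having lower inclusion of an exon whose length is not a multiple of 3 and higher retention of the intron before it. An exon and the intron beside it share reads, and a pattern common to these genes was not tested.

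RECQL5, a helicase that travels with RNA polymerase II, had lower retention in DFMO. A 472-nt intron in its 5′ untranslated region (chromosome 17, 75666572 to 75667043, minus strand) was retained at 49.5%, 59.0% and 52.6% in the DFMO libraries, against 82.1%, 66.7% and 67.8% in the Control libraries. Retention averaged 53.7% ± 4.87 in DFMO and 72.2% ± 8.59 in Control (SD, n = 3 each), a difference of −18.5 points (limma adjusted p = 0.0138). Retention stayed above 50% in 2 of the 3 DFMO libraries. Leaving out Control replicate 1, DFMO replicate 1 or DFMO replicate 3 ended the call.

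POLQ, the polymerase of microhomology-mediated end joining, gave the only call among the 18 tested events of the damage-tolerance polymerases. A 3052-nt intron (chromosome 3, 121473488 to 121476539, minus strand, inside the coding sequence) was retained at 13.5%, 14.8% and 12.3% in the DFMO libraries, against 1.55%, 0% and 2.68% in the Control libraries. The means were 13.5% ± 1.22 in DFMO and 1.41% ± 1.35 in Control (SD, n = 3 each), a difference of 12.1 points (limma adjusted p = 0.0133). The retained reads at the 2 ends of the intron numbered 9 and 7, 0 and 12, and 4 and 5 in the DFMO libraries, against 0 and 2, 0 and 0, and 1 and 2 in the Control libraries. In the second DFMO library all of them lay at 1 end, and each of the 3 fits without a DFMO library lost the call. POLQ exons of 67 and 185 nt differed by 9.12 and −10.04 points and did not pass (limma adjusted p = 0.331 and 0.387).

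PRKDC, the catalytic subunit of DNA-PK, had the lowest p of all tested member events at a modest size. A 93-nt coding exon (chromosome 8, 47782162 to 47782254, minus strand) was included at 89.6%, 90.7% and 92.6% in the DFMO libraries, against 96.3%, 98.2% and 97.6% in the Control libraries, from 817 to 1616 reads in each library. Inclusion averaged 91.0% ± 1.53 in DFMO and 97.4% ± 0.98 in Control (SD, n = 3 each), a difference of −6.40 points (limma adjusted p = 0.00166), which is under the 10 points required for a call. The 93-nt exon is 31 codons long. Only 4 events of 2 non-homologous end joining genes were tested.

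ERCC1, the partner of the XPF nuclease that cuts 5′ of a lesion, carried the strongest event of nucleotide excision repair. The 72-nt exon printed above was included at 74.3%, 76.3% and 78.7% in the DFMO libraries, against 66.1%, 66.99% and 67.6% in the Control libraries, from 688 to 1072 reads in each library. The means were 76.4% ± 2.20 in DFMO and 66.9% ± 0.79 in Control (SD, n = 3 each), 9.55 points higher (limma adjusted p = 0.00609), just under the 10 points. Its neighbours of 100 and 69 nt differed by 2.64 and 2.54 points and did not pass (limma adjusted p = 0.0919 and 0.0974). A 106-nt coding exon of XPA, the protein that verifies the lesion, differed by 5.19 points, at a mean of 97.5% in DFMO and 92.3% in Control (limma adjusted p = 0.11). In XPC, the lesion sensor, a 4982-nt intron too rarely retained to be tested was at 1.27%, 0% and 0% in DFMO and at 12.3%, 2.86% and 7.36% in Control.

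In the other roles no event was called. Of the checkpoint kinases, which signal damage to the cell cycle, CHEK2 had a 2032-nt intron at 75.1%, 75.7% and 69.6% in DFMO, against 66.3%, 60% and 70% in Control (limma adjusted p = 0.0185). These groups overlapped, and all retained reads lay at 1 end of the intron (176, 160 and 155 in DFMO, 118, 90 and 154 in Control, against 0 at the other end in each library). Parts of CHEK2 also have near-identical pseudogene copies, as do parts of PMS2, FANCD2 and BRCA1. Reads of those parts could be split between copies, and their values are uncertain. Which of the events given here lie in copied parts was not tested. An ATM exon listed at 98 nt was at 91.5%, 87.9% and 81.5% in DFMO, against 95%, 98.1% and 100% in Control (limma adjusted p = 0.0928).

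The Fanconi anaemia genes had 56 tested events, of which FANCI alone gave 34. FANCI is the partner of FANCD2 in the clamp that marks a crosslink. Its 30 tested exons differed by −3.43 to 4.05 points, with a median of 1.22, and 27 of them were higher in DFMO. Over all tested exons the median was 1.24 points, and 60.3% were higher. Neighbouring exons of a gene share reads, so the FANCI exons are not independent observations. None of them passed, and the lowest limma adjusted p was 0.225. A 1300-nt FANCI intron was at 9.68%, 4.76% and 9.73% in DFMO, against 3.17%, 4.26% and 2.74% in Control (limma adjusted p = 0.112). A 529-nt intron of FANCM, the translocase that remodels stalled forks, was at 19.1%, 19.96% and 14.5% in DFMO, against 13.2%, 7.89% and 4.09% in Control (limma adjusted p = 0.116). In FANCA, a core-complex subunit, a 158-nt intron outside the tested range was at 0% in each DFMO library and at 1.10%, 18.03% and 3.70% in the Control libraries, so its mean difference rested on 1 Control library.

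In mismatch repair, 22 events were tested. EXO1, the exonuclease that removes the mispaired strand, had the lowest p of the role at a pair of acceptors 3 nt apart on chromosome 1. The longer form was used at 49.8%, 62.6% and 42.8% in DFMO, against 44.2%, 33.1% and 34.2% in Control. The groups overlapped, and the difference of 14.6 points did not pass (limma adjusted p = 0.186). In base excision and single-strand break repair only 3 events were tested, and the lowest p belonged to an unannotated 179-nt exon of LIG3, the ligase that works with XRCC1, at 9.27% ± 2.85 in DFMO and 8.66% ± 2.56 in Control (SD, n = 3 each; limma adjusted p = 0.936).

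By class, the tested exons of these genes had a median difference of 0.86 points, against 1.24 points over all tested exons. Higher by at least 5 points in DFMO were 10.5% of the member exons, against 23.99% of all exons, and lower by as much were 14.3%, against 12.4% of all exons. The member introns had a median of 0.63 points, against 0.33 points for all introns, the acceptors −0.18, against −0.01 points, and the donors −1.55, against −0.75 points. These are descriptions of a list in which 1 gene, FANCI, holds 18.3% of the events. Its weight is larger among exons, with 30 of the 105 tested. All of these lay between −3.43 and 4.05 points, so none could count toward the shares at 5 points. In 13 of the 57 genes no event was in the tested range. In all, 19 events of these genes differed by 10 points or more, and 11 of the 19 did not pass the test.

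How much RNA each gene gave was gauged from the same table, since no gene counts were used here. The junction-read proxy averages log2(1 + reads per 1000000 event reads of the library) over a gene's exon events. It was tested with limma over 9232 genes, and understates the change of genes with few reads. In bulk cells, fewer expressing cells and less RNA per cell cannot be told apart. Of the 57 genes 56 had a value, all but LIG4, the ligase of end joining. The proxy rose in 8 (14.3%, against 20.7% of all genes) and fell in 21 (37.5%, against 25.1% of all genes), while 27 did not pass at an adjusted p under 0.05. None reached 1.5-fold, as did 0.347% of all genes. The median difference of the members was −0.06 log2 units, against −0.01 over all genes.

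**Figure D4:**
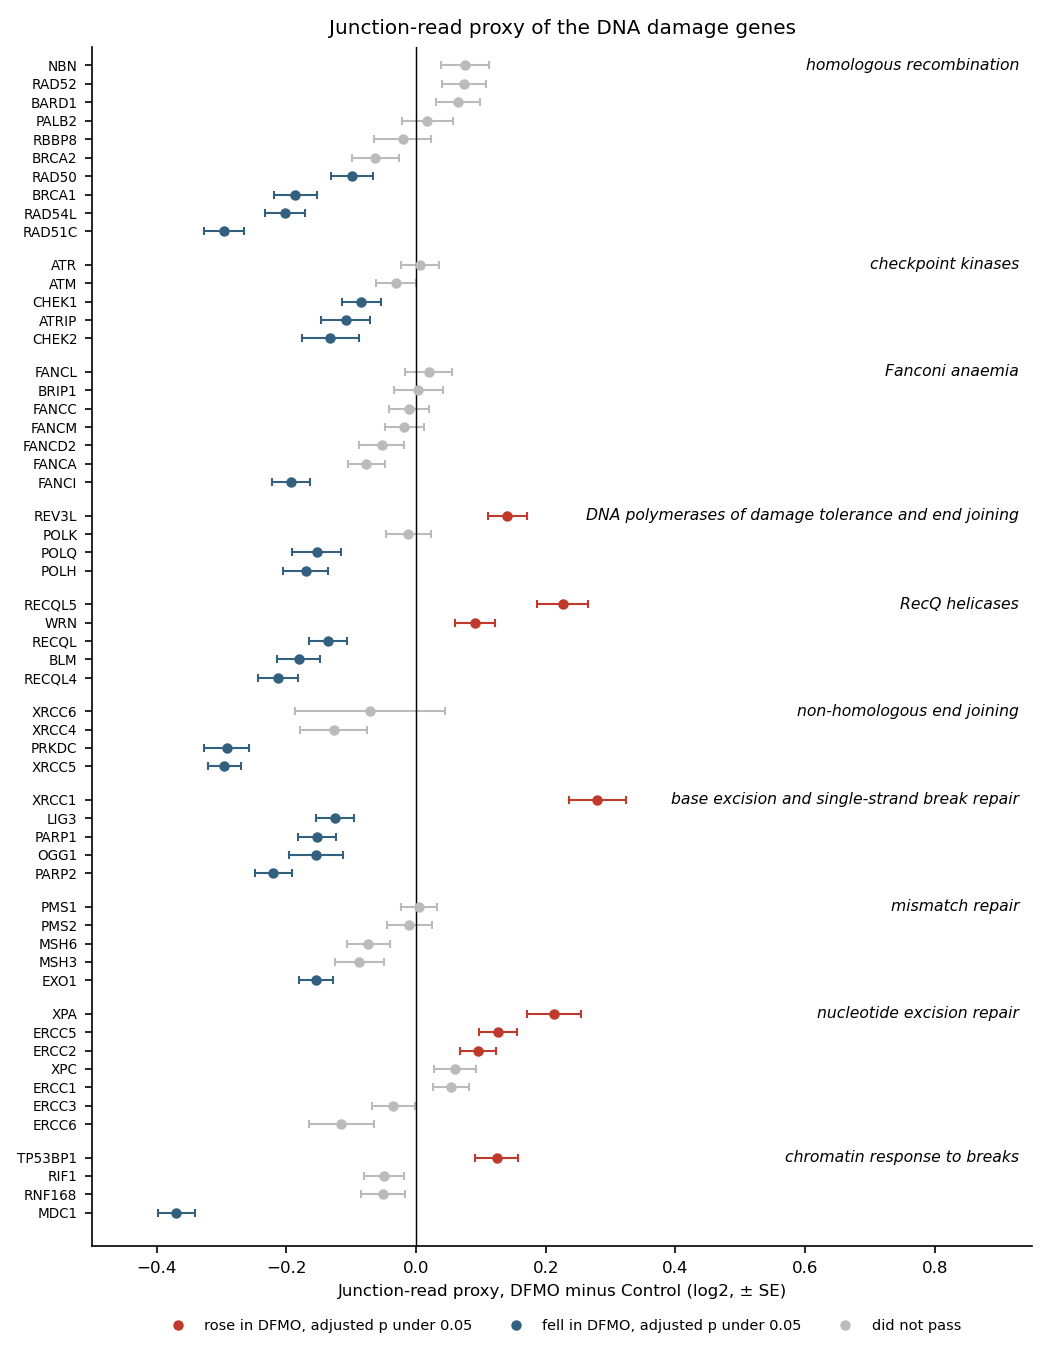
Junction-read proxy, DFMO minus Control in log2 units with its SE (horizontal axis), for 56 genes grouped by role; red marks those that rose in DFMO, blue those that fell and grey those that did not pass. The differences run from −0.37 (MDC1) to 0.28 (XRCC1), and the base excision genes other than XRCC1 all lie below 0.

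MDC1, the scaffold that spreads the break signal on chromatin, fell most. Its proxy was 1.24, 1.24 and 1.25 in the DFMO libraries, against 1.58, 1.62 and 1.64 in the Control libraries, a log2 difference of −0.37 ± 0.03 (SE), or 0.774-fold (limma adjusted p = 4.22e-05). TP53BP1, which binds the same chromatin, rose by 0.12 log2 units (limma adjusted p = 0.0149), and RIF1 and RNF168 did not pass, at −0.05 each.

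Of the DNA-PK genes, XRCC5 and PRKDC fell. XRCC5, the Ku80 subunit that caps a broken end, had a proxy of 4.70, 4.67 and 4.74 in DFMO, against 4.98, 5.01 and 5.01 in Control (log2 difference −0.30 ± 0.03, SE, limma adjusted p = 6.68e-05). PRKDC was at 2.35, 2.32 and 2.43 in DFMO, against 2.63, 2.68 and 2.67 in Control (log2 difference −0.29 ± 0.03, SE, limma adjusted p = 0.000284). For both, every DFMO library lay under every Control library. XRCC6 (Ku70) and XRCC4, at −0.07 and −0.13 log2 units, did not pass, and XRCC6 rested on 1 event.

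In homologous recombination 4 of 10 genes fell, none rose and 6 did not pass, while 25.1% of all genes fell and 20.7% rose. RAD51C was at 2.25, 2.16 and 2.18 in DFMO, against 2.496, 2.488 and 2.499 in Control (log2 difference −0.30 ± 0.03, SE, limma adjusted p = 0.000159). RAD54L, a motor that helps strand exchange, and BRCA1 fell by 0.20 and 0.19 log2 units, and RAD50 by 0.10. NBN, at 0.07, and RBBP8, at −0.02, did not pass, which does not show that their amount of RNA was unchanged. Of the checkpoint genes CHEK2 fell by 0.13, ATRIP by 0.11 and CHEK1 by 0.08 log2 units, and ATM (−0.03) and ATR (0.01) did not pass. Of the Fanconi anaemia genes FANCI fell, by 0.19 log2 units, and the other 6, from FANCA at −0.08 to FANCL at 0.02, did not pass.

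Base excision and single-strand break repair split in direction. XRCC1, the scaffold of single-strand break repair, was at 2.37, 2.29 and 2.41 in DFMO, against 2.111, 1.998 and 2.126 in Control (log2 difference 0.28 ± 0.04, SE, or 1.21-fold, limma adjusted p = 0.00116). The damage sensors PARP2 and PARP1 fell by 0.22 and 0.15 log2 units and LIG3 by 0.12, and the glycosylase OGG1 fell to 0.898-fold (limma adjusted p = 0.016). XRCC1 thus rose while all 4 other genes of its role fell. Of all genes 20.7% rose and 25.1% fell.

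Nucleotide excision repair was the role in which 3 of 7 genes rose and none fell, while 20.7% of all genes rose and 25.1% fell. Counts from so few genes are no result about a role as a group. XPA was at 1.83, 1.88 and 1.79 in DFMO, against 1.54, 1.67 and 1.65 in Control (log2 difference 0.21 ± 0.04, SE, limma adjusted p = 0.00372). ERCC5, the nuclease that cuts 3′ of a lesion, rose by 0.13, and ERCC2, a helicase of TFIIH, by 0.09 log2 units. ERCC1 (0.05), XPC (0.06), ERCC3 (−0.04) and ERCC6 (−0.12, from 1 event) did not pass. In mismatch repair EXO1 fell by 0.15 log2 units, and MSH3 (−0.09), MSH6 (−0.07), PMS2 (−0.01) and PMS1 (0.00) did not pass.

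All 5 RecQ helicases changed, in both directions, while 20.7% of all genes rose and 25.1% fell. RECQL5, whose 5′ intron was retained less, was at 0.98, 0.87 and 0.97 in DFMO, against 0.73, 0.68 and 0.74 in Control (log2 difference 0.23 ± 0.04, SE, limma adjusted p = 0.00194). WRN rose by 0.09, while RECQL4 fell by 0.21, BLM by 0.18 and RECQL by 0.14 log2 units. Of the polymerases, REV3L, the catalytic subunit of polymerase zeta, rose by 0.14. POLH, which copies past ultraviolet damage, fell by 0.17 and POLQ by 0.15 log2 units, and POLK (−0.01) did not pass.

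Of 126 other genes of DNA repair, 105 had a value. Of these, 15 rose (14.3%, against 20.7% of all genes) and 40 fell (38.1%, against 25.1% of all genes), with a median of −0.07 log2 units. The lowest were TOPBP1, the activator of ATR, at −0.38, MUS81, a nuclease, at −0.30, MAD2L2 and NEIL3 at −0.29, and DDB2 at −0.27. The highest were FAN1, a nuclease, at 0.33, BRE at 0.31, ATRX at 0.26, and GTF2H3 and MGMT at 0.25.

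Proliferation genes had lower proxies as well. Of 30 such genes 28 fell (93.3%, against 25.1% of all genes) and 1 rose (MKI67, by 0.11), with a median of −0.23 log2 units and PLK1 lowest at −0.59. The part of proliferation in the lower proxies of the repair genes was not tested. All 15 neuroblast markers had a value, and 6 rose (40%, against 20.7% of all genes) and 3 fell (20%, against 25.1% of all genes). CHGB and PHOX2A rose by 0.49 log2 units and GATA3 by 0.43, and STMN2 fell by 0.41, each a larger proxy difference than that of any DNA damage gene. Only 10 of the DNA damage genes had a mean proxy above 2, and the proxy understates the change of genes with few reads. The sizes of change therefore cannot be ranked between the lists. HAND2 (0.00) and MYCN (−0.01) did not pass. Of 19 markers of other cell types 3 had a value: DCN averaged 1.67 in DFMO and 2.07 in Control, LUM 0.65 in DFMO and 0.68 in Control, and S100B 0.47 in DFMO and 0.39 in Control. DCN fell by 0.40 log2 units (limma adjusted p = 3.82e-05), and LUM and S100B did not pass. The other 16 had no covered exon event.

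**Figure D5:**
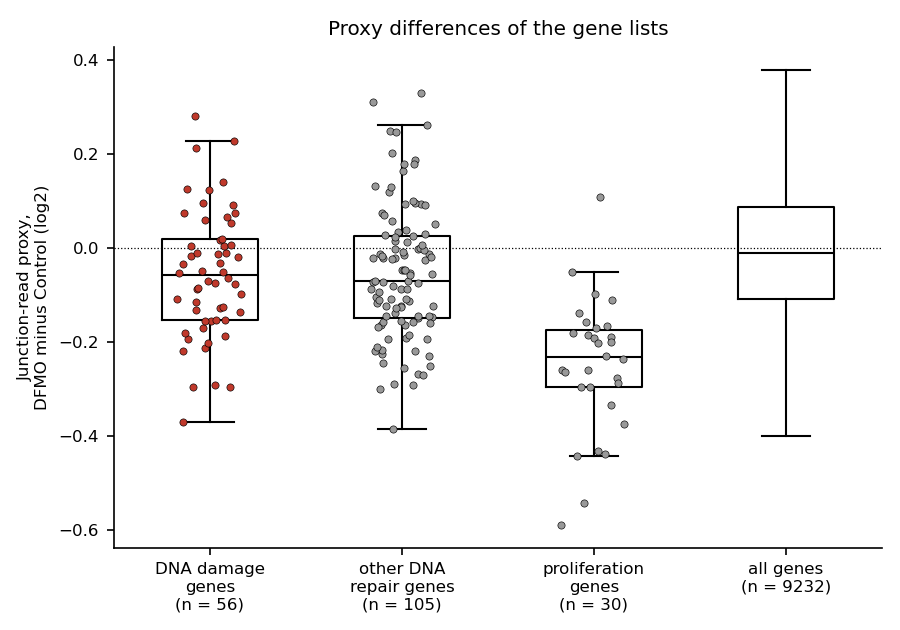
Junction-read proxy, DFMO minus Control in log2 units (vertical axis), for the 56 DNA damage genes, 105 other DNA repair genes, 30 proliferation genes and all 9232 genes; points are the genes of the 3 lists, boxes the quartiles with the median line, and whiskers reach the last gene within 1.5 times the box height. The medians are −0.06, −0.07, −0.23 and −0.01.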

How the data were processed

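RNA of 3 DFMO and 3 Control libraries of SKNBE2 cells was sequenced by the authors. The deposited table gives a percent for each splicing event and library, and beside it a coverage score and the reads for inclusion and exclusion; the build is GRCh38 per the submitters' processing notes; for the aligner and the quantifier: not given in the sources used here. Kept were events that reached 10 reads and a LOW score in all 6 libraries. A percent recomputed from the inclusion and exclusion numbers lay within 0.5 points of the deposited one in 100% of cases. These numbers follow the percent and are not always raw junction counts. The RAD51C intron of DFMO replicate 1, for example, had 62, 0 and 414 junction reads at 6.97%. The agreement is thus no independent check of the percents. Log2((inclusion + 0.5)/(exclusion + 0.5)) was tested with limma 3.58.1 in R 4.3.3, with robust empirical Bayes and a variance trend on the expected counting variance, two-sided, over all events with a mean of 5 to 95%. Log2 odds and proxies were computed here; the deposited lengths give the nt of each event. Positions and sequences come from GENCODE 29 (GRCh38). Tests were run on simulated data with known changes. Members, gene lists and named events were chosen with earlier results of these data known: named are all called events, all with adjusted p under 0.05, the lowest p of each role, and the 5 largest untested differences; for the proxy the 12 lowest and 12 highest, and each role's extremes. Introns beside named exons and the other events given as not passing were added after their values were seen. Libraries were not treated as paired by replicate number. Reads carry no molecular identifiers, and read numbers convey counting error only. Alternatives are listed in the closing section.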

Additional observations from a re-analysis of the deposited data

How the results depend on the processing

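Of the member events 3 were called higher and 5 lower in DFMO. Without the variance trend 0 and 0 were called, and with a quasi-binomial regression of each event 0 and 0. The fit used here had 10.1 prior degrees of freedom for exons, and for introns and splice sites it took the spread wholly from the trend. Without the minimum size 7 were higher, and with a minimum of 15 points 1 was higher and 3 lower, which follows from the threshold. Leaving out 1 library gave 1 (without DFMO replicate 2) to 5 (without Control replicate 3) higher, and 2 (without Control replicate 3, DFMO replicate 1 or DFMO replicate 2) to 3 (without any of the others) lower. Of the proxies 8 rose and 21 fell. Among genes with a mean proxy above 2, of which the members hold 10, 1 rose and 7 fell. Leaving out 1 library gave 5 to 8 that rose and 17 to 19 that fell, with 5 that rose without DFMO replicate 2. With no minimum size 29 proxies were called, against 0 at 1.5-fold; setting the median of all genes equal left 8 that rose and 17 that fell. The LIG3 exon had a difference of 0.613 points and ranged over the left-out libraries up to 2.07 points without DFMO replicate 3, reversing without Control replicate 2 (−0.865 points) and without DFMO replicate 2 (−0.772 points). Same-numbered libraries showed no shared deviation (correlations of −0.0202, −0.0022 and −0.007). Deviations within 3 libraries per group also hold counting error, so whether these libraries were paired is not settled. The replicate block gave 3 higher and 6 lower events, RAD50 being the added one, and 6 proxies that rose and 19 that fell. Causes were not tested except where the setting itself shows them. The POLQ intron could not be fitted where balanced reads at both ends were required. Of the other alternatives of single events, 243 kept direction and side of the threshold, 48 lost the call and 8 gained one, and of single proxies 684, 44 and 10. Counts near 50 reads limit the splice-site and intron percents.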

Other observations

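Called splicing events were also present in 6 of the other DNA repair genes, 2 higher and 6 lower in DFMO among 211 tested events. This is 3.79% of them, against 3.04% of all tested events, and a share this near the background is no result about these genes as a group. A 51-nt coding exon of RAD51AP1, a recombination factor, was included at 35.6%, 31.4% and 26.4% in the DFMO libraries, against 14.4%, 14.4% and 15.2% in the Control libraries (limma adjusted p = 0.0126). A 75-nt coding exon of POLL, a gap-filling polymerase of end joining, was at 92.3%, 96.9% and 87.5% in DFMO, against 72.4%, 75.6% and 73.5% in Control (limma adjusted p = 0.0403). Both exons are multiples of 3, and both were higher in every DFMO library than in any Control library.

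NEIL3, a glycosylase that opens crosslinks, had 2 coding exons lower in DFMO. The 167-nt exon averaged 77.8% ± 1.90 in DFMO and 92.4% ± 2.37 in Control (SD, n = 3 each; limma adjusted p = 0.00964), and the 170-nt exon 85.3% ± 4.83 in DFMO and 96.2% ± 2.60 in Control (limma adjusted p = 0.0416). ATRX, a chromatin remodeller, retained an 11447-nt intron at 6.75% ± 0.45 in DFMO and 18.3% ± 1.60 in Control (SD, n = 3 each, limma adjusted p = 0.00318). It used a donor that adds 137 nt at 5.65% ± 1.94 in DFMO and 22.5% ± 8.69 in Control (limma adjusted p = 0.0281). Introns of FAAP100 (724 nt) and APTX (351 nt) were retained at 17.1% and 36.1% in DFMO, against 30.3% and 46.5% in Control (limma adjusted p = 0.0233 and 0.0255).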
